A study of Homo sapiens with 48 samples.

Results

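K562 is an established human leukaemia line, grown from a chronic myeloid leukaemia in blast crisis, that carries the BCR-ABL1 fusion kinase. The samples described here are the 24 mock-treated ones, chosen by the word Ctrl in their titles, out of 48 K562 samples hybridised to Affymetrix arrays. They fall into 8 sets with the letters A to H, each of 3 mock and 3 imatinib samples. The labels give no meaning to a set letter and name no separate cultures, so that a p-value here tests against a spread between samples that may be technical. For the mock cells, Trizol extraction was followed by column purification, and the targets held the full level of spike controls. The 24 samples treated with imatinib, an inhibitor of the ABL kinase, at 1 µM for 24 h had RNA from the column kit alone and reduced spikes. Treatment and RNA isolation therefore cannot be told apart wherever mock samples are set against imatinib samples.

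K562 cells are known as leukaemic progenitors held early in the red cell lineage, with embryonic and fetal globins, and can be pushed toward red cells or megakaryocytes. BCR-ABL1 is a constantly active tyrosine kinase that feeds the STAT5, RAS and PI3 kinase pathways and so drives growth without cytokines. The levels below ask which genes make up this state when no drug is present. A level is the percentile rank of a probe set's signal within its sample, from 0 to 100 over 22215 probe sets, averaged over the 3 samples of a set and then over the 8 sets. The error after a mean is the SD over the 8 set means. A gene is represented by the probe set of highest mean rank that names no other gene, which gave 11963 genes. A rank reflects transcript abundance together with how well the probes hybridise, so an order between genes is an order of signal and not of transcript number. RNA came from whole cultures, in which fewer expressing cells and less RNA per cell cannot be told apart.

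To give low ranks a scale, 54 measured genes of other tissues, such as albumin, insulin and milk proteins, served as a reference for genes that blood cells do not need. Their median rank was 32.8, against 56.6 over all genes. The highest of them, SFTPB, a lung surfactant protein, lay at 78.5 ± 3.87 (SD, n = 8 sets). Its other probe sets lay at 45.3, 42.4 and 28.1, so this level rests on its highest probe set alone. The 95th percentile of the 54 tissue genes was 72.5. In single samples SFTPB ran from 65.1 through a median of 78.5 to 84.4. This value of 78.5 is called the tissue ceiling below, a choice made after the ranks were seen. A gene under it gave a signal within the range of these tissue genes, which does not show that the gene was silent. Above the ceiling stood 3066 of 11963 genes (25.6%), at or above the 90th percentile 1386 (11.6%), and below the 50th 5071 (42.4%). These 3 shares are the background against which the counts in each gene list are read.

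Samples of the same set ranked probe sets almost alike, with Spearman's rho from 0.988 to 0.998 over 24 pairs. Pairs from different sets had rho from 0.889 to 0.979. Sets E and G stood a little apart, with mean rho of their set means to the other sets of 0.938 and 0.949, against 0.955 to 0.961 for the rest. Set E also had the highest mean difference between 3' and 5' GAPDH control probes, 0.870 on the log2 scale, and set G the lowest, 0.0355. The part of these control differences in the ranks was not tested. Leaving out set E, set G or any other set moved none of 287 genes named by rule by more than its SD over sets. With this many sets, dropping any of them must shift a mean by less than that SD, whatever the ranks. The check therefore cannot show how far sets E and G shaped the levels.

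In percentile points, ranks varied least between sets at the top of the order and most in its middle. The scale ends at 100, which by itself narrows the spread near the top, so these SDs do not compare stability between bands. Among genes at or above the 90th percentile the median SD over sets was 0.784 points and the median range between the lowest and highest set 2.30 points. Among genes from the 20th to the 50th percentile the same values were 6.92 and 20.3 points. The SD within a set was smaller in both bands, 0.296 and 1.84 points. By limma's F-test over the 24 samples, 21898 of 22215 probe sets (98.6%) differed between sets at an adjusted p under 0.05, and so did 10818 of the 10997 with a mean rank of 50 or more. Of the 671 list genes tested, 653 differed, a share near that background. Of all genes, 1080 stood at or above the 90th percentile in every one of the 8 sets and 1867 in at least 1, while 987 (8.25%) did so in all 24 samples. Leaving out sets E and G in turn gave 21612 to 21709 probe sets that differed. Below the 50th percentile stood 3635 genes in all 8 sets and 6452 in at least 1.

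**Figure D1:**
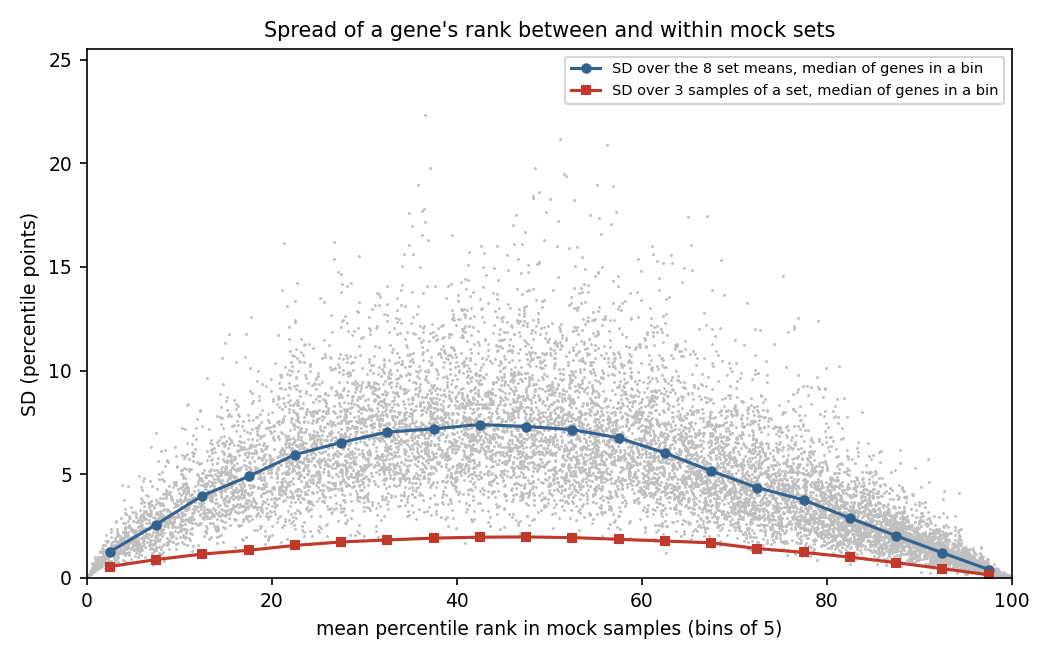
Spread of a gene's rank in the mock samples. Each grey point is 1 of 11963 genes, with its mean percentile rank on the x axis and the SD of its 8 set means, in percentile points, on the y axis; the blue line is the median of that SD in bins of 5 points and the red line the median SD over the 3 samples of a set. Both lines are lowest at the ends of the rank order and highest in its middle, and the blue line lies above the red one throughout.

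The very top of the order belonged to translation, the cytoskeleton, glycolysis, iron and the embryonic globin. EEF1A1, the factor that brings charged tRNA to the ribosome, had the mean rank of 99.99 ± 0.0051 (SD, n = 8 sets). Outside the ribosomal protein and translation factor lists, the 20 leading genes began with TUBA1B (99.9), GAPDH (99.9), TUBA1C (99.9), PPIA (99.8) and ACTB (99.8). FTL, the light chain of the iron store ferritin, came next at 99.8. ALDOA, TUBB, HSP90AB1, UBB, TFRC, LDHA and CFL1 lay between 99.5 and 99.7. The list of 20 closed with HBE1 (99.4), CHCHD2, NACA, VIM, ATP5F1B, IFITM1 and SLC25A5 (99.2). HBE1, the embryonic epsilon globin, is the red cell gene among these 20. TFRC, the transferrin receptor that brings iron into the cell, ran from 99.4 to 99.7 over the 24 samples with a median of 99.6.

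Of 52 ribosomal proteins measured, 50 ranked at or above the 90th percentile in all 24 samples, and the list median was 99.6. RPS10 and RPS18 led with 99.97 and 99.94. The other 2 lay under the ceiling, RPL27A at 76.9 and RPLP2 at 48.9. RPLP2, a protein of the ribosomal stalk, also had the widest range between sets of any list gene, from 21.04 in set G to 82.7 in set E. RPL27A ran from 55.5 in set H to 94.995 in set E. Among translation factors, 27 of 29 reached the 90th percentile. EEF1A2, the form of the elongation factor used in muscle and neurons, was at 47.9 ± 10.8 and so within the range of the tissue genes.

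Many ribosomal protein and elongation factor genes start transcription at a C followed by a run of pyrimidines, a feature known from messages whose translation follows mTOR. RefSeq promoters (GRCh38.p14) were at hand for 46 of the 52 ribosomal proteins. A C at the start base followed by 4 or more bases that are C or T stood in 33 of 46 of them (71.7%), in 87 of 1124 other genes at or above the 90th percentile (7.74%) and in 1104 of 27305 genes of the promoter table (4.04%). In the respiratory chain list it stood in 4 of 27 (14.8%) and in glycolysis in 0 of 16. Start regions are shown to make the contrast visible among genes that all ranked above 98, with the run in capitals, 15 bases before the start and 25 from it on.
EEF1A1: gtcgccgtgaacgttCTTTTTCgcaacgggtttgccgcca
RPS18: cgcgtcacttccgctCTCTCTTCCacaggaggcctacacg
RPS24: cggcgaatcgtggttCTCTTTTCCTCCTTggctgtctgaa
RPS6: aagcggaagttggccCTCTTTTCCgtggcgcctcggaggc
RPL3: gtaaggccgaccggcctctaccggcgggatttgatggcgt
GAPDH: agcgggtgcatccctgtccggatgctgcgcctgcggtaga
PRAME: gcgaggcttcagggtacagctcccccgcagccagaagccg
They lie at chr6:73521008-73521047 on the minus strand (EEF1A1), chr6:33272060-33272099 plus (RPS18), chr10:78033848-78033887 plus (RPS24), chr9:19380212-19380251 minus (RPS6), chr22:39319599-39319638 minus (RPL3), chr12:6535249-6535288 plus (GAPDH) and chr22:22559241-22559280 minus (PRAME). RPL3, GAPDH and PRAME have no match at the annotated start base, and the bases next to it were not searched. A match describes letters at one annotated start and is no measurement of translation.

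Red cell genes lay at very different ranks, with the embryonic globins HBE1 and HBZ at the top and the adult HBB and HBD lower. Of 10 globin entries 5 were measured, and the rest, fetal gamma and adult alpha globins among them, were not analysed here. Of the 5, 2 ranked at or above the 90th percentile and the other 3 did not pass the tissue ceiling. HBE1 was at 99.4 ± 0.0489, with single samples from 99.3 through a median of 99.4 to 99.6. HBZ, the embryonic zeta globin, was at 97.1 ± 0.538 and ran from 95.6 through 97.1 to 98.1. Both embryonic genes stayed above the 90th percentile in every sample. HBQ1, the theta globin, was at 78.4 ± 5.30, which is level with the ceiling. HBB, the adult beta globin, was at 75.5 ± 5.65, and HBD, the minor adult delta globin, at 51.6 ± 6.20. HBB samples ran from 62.6 through 77.3 to 82.8 and HBD samples from 44.1 through 48.9 to 62.0. HBB samples lay on both sides of the ceiling, and HBD samples were all under it. A second HBE1 probe set ranked at 41.7, so the level of epsilon rests on 1 of its 2 probe sets.

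Heme synthesis in the mock cells was uneven along the pathway. UROD, which makes coproporphyrinogen, was at 95.8 ± 0.758. FECH, which inserts iron in the last step, was at 87.6, with a second probe set at 49.2, and CPOX at 85.8. The remaining 5 of 8 enzymes lay under the ceiling. ALAS2, the red cell form of the enzyme that starts the pathway, was at 53.3 ± 3.30 and ran from 47.0 through 53.5 to 64.0 over the samples. ALAS1, the form found in all tissues, was at 74.8 ± 2.21. In the iron list, TFR2, the second transferrin receptor, was at 85.2 and the mitochondrial glycine carrier SLC25A38 at 81.6. Both are above the ceiling, though other TFR2 probe sets lay at 58.1 and 36.4. HMOX1, which breaks heme down, was lowest of the 10 at 41.5.

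Genes of the red cell membrane were spread over the order. Of 22 surface and skeleton genes, 3 reached the 90th percentile and 6 passed the ceiling, shares of 13.6% and 27.3% that are near the background. RHAG, the Rh-associated ammonium channel, was at 96.7 ± 1.12. CD59, which blocks complement, was at 95.4 and BSG, the Ok blood group carrier basigin, at 94.9. ANK1, the ankyrin that ties the skeleton to the membrane, was at 82.8 ± 3.504. Several others were within the range of the tissue genes. SLC4A1, the band 3 anion exchanger, was at 69.2 ± 6.80 and ran from 46.6 through 70.9 to 82.3. AQP1, the water channel, was at 43.0, EPB42 at 44.2, CD36 at 30.6 and ERMAP at 28.6.

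Transcription factors of red cells and progenitors had a list median of 81.3, the highest of the 15 lineage lists. With the median of a gene's probe sets in place of the highest it was 64.2, below globins (71.8), iron handling (69.97), heme synthesis (66.4) and red cell surface (66.3). Of 23, 9 reached the 90th percentile (39.1%) and 13 passed the ceiling (56.5%), 9 of them in every sample. MYB, which keeps progenitors dividing, led at 97.0 ± 0.503, with samples from 95.9 through 97.1 to 97.8. NFE2, a factor of globin and platelet genes, was at 94.8, HHEX at 93.9, LYL1 at 92.7 and TCF3 at 92.6. GATA1, the master factor of red cells and megakaryocytes, was at 90.7 ± 0.950 and ran from 88.4 through 90.7 to 92.6. GATA2, its forerunner in progenitors, was at 90.2 ± 2.14. By their highest probe sets both GATA factors were above the ceiling in all 24 samples. Other GATA2 probe sets lay at 79.9 and 65.5, on both sides of the ceiling. KLF1, which switches on adult globin, was at 82.2 ± 1.90 and above the ceiling in its mean, though single samples fell to 75.1. TAL1 (68.2), BCL11A (67.7) and GFI1B (64.2) lay under the ceiling. SPI1, the PU.1 factor that opposes GATA1, was at 41.2 ± 9.41, with samples from 28.5 through 38.5 to 59.6. ERG was lowest at 23.1, with ETV6 at 33.5 and MECOM at 34.7. All SPI1 samples were under the ceiling. A second MYB probe set ranked at 11.2, so that the order of MYB rests on 1 of 2. Other TCF3 probe sets lay at 92.1 and 83.6, and the rest, from 78.1 down, were under the ceiling. The level of TCF3 therefore rests on a minority of its probe sets.

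GATA factors bind the letters GATA, and AGATAA or TGATAA is the form searched here on both strands of the 250 bases before the start. In the red cell surface list 5 of 18 genes with a promoter held one (27.8%). The share was 940 of 9562 measured genes with a promoter (9.83%) and 4074 of 27305 in the promoter table (14.9%). Of the tissue genes 38 of 54 had a promoter, and 11 of these held one (28.9%). Both lists are small, and nothing particular to red cell genes is read from the share. The promoters of 3 genes with a match are shown as the 120 bases before the start, with the match in capitals on the opposite strand, for a high surface gene, a factor and a receptor.
RHAG: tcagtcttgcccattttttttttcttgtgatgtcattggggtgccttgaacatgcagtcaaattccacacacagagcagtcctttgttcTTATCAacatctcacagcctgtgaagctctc
KLF1: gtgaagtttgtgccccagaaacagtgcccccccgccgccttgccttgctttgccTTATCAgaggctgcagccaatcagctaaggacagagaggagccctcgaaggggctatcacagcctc
EPOR: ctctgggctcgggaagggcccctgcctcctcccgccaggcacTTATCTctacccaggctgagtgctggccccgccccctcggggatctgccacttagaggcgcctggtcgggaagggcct
All are on the minus strand, RHAG at chr6:49636840-49636959, KLF1 at chr19:12887202-12887321 and EPOR at chr19:11384315-11384434. The same 120 bases of HBD (rank 51.6) and TAL1 (68.2), both under the ceiling, also held a match. Those of GATA1, MYB, ICAM4 and GFI1B held none. These are letters in a window, not measured binding.

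Markers of other blood lineages were mostly within the range of the tissue genes. Of 17 megakaryocyte and platelet genes, 0 passed the ceiling. The highest were PLEK (68.5), PF4 (63.1) and GP9 (60.4), and ITGA2B, the CD41 integrin that defines the lineage, was at 53.2 ± 7.55. MMRN1 was lowest at 1.41. Of 23 granulocyte and monocyte genes, 1 passed: CEBPB at 93.5 ± 0.975, a factor that many other cell types also use. Granule proteins lay under the ceiling, among them CTSG at 54.5, CAMP at 50.8, MPO at 26.9 ± 4.47, ELANE at 25.8 and PRTN3 at 22.96. MPO samples ran from 18.0 through 27.2 to 33.5. LYZ was at 20.6, S100A8 at 9.87 and MNDA at 5.29. Of 12 B cell genes none passed, the highest being CD22 at 69.7, and BLK swung from 23.8 in set D to 72.0 in set E. Of 21 T and NK cell genes only CD3D (79.4 ± 4.68) passed, by less than its SD, and PRF1, the killer cell perforin, was at 76.5. CD3E was at 64.6 and CD3G at 43.4, so the other CD3 chains named here did not pass. GATA2 was the only one of 9 mast cell and eosinophil genes to pass.

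Stem and progenitor markers were mostly in the middle or low. Of 11 measured, EPOR alone passed the ceiling. EPOR, the erythropoietin receptor, was at 93.1 ± 2.47, but its 4 other probe sets lay between 3.61 and 52.5, so this level rests on 1 of 5. KIT was at 54.7 and CD34 at 47.4. PROM1, MEIS1 and the integrin ITGA4 lay at 10.1, 16.6 and 7.42. A few genes better known from other tissues ranked high. VIM, the intermediate filament of mesenchymal and many cultured cells, was at 99.3 ± 0.137, and KRT18, a keratin of simple epithelia, at 97.9 ± 0.217. KRT8, the partner of KRT18, was at 89.99 ± 3.64, EPCAM at 84.2 and KRT19 at 82.9. The epithelial cadherin CDH1 was at 13.5 and the matrix protein LUM at 0.503, both under the ceiling.

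**Figure D2:**
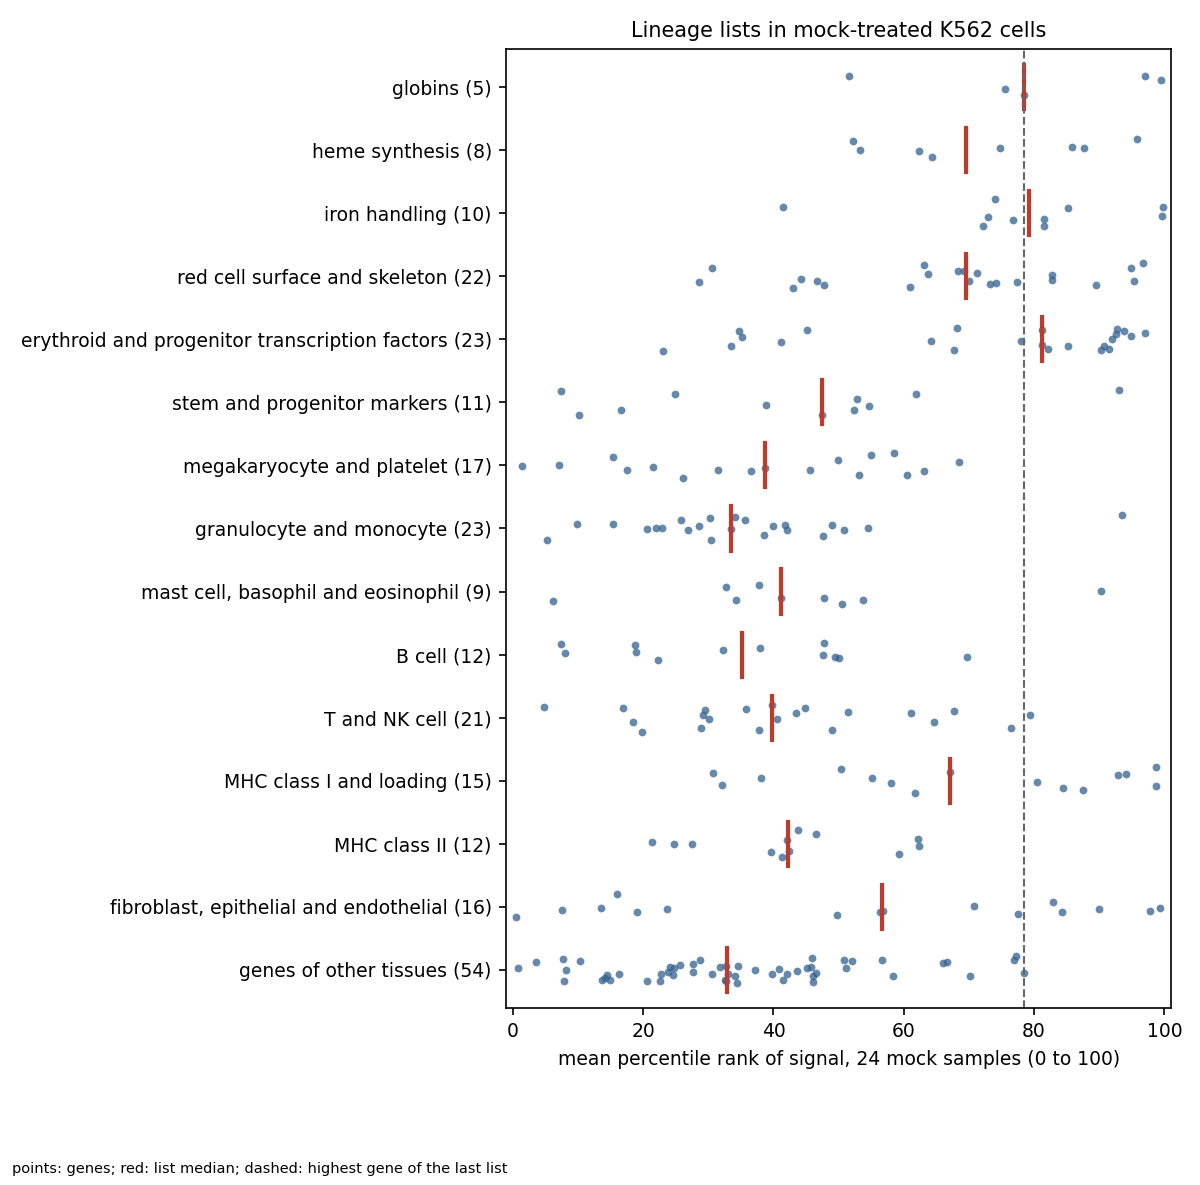
Percentile rank of every measured gene in 15 lineage lists, averaged over the 24 mock samples. Points are genes, with the number measured in brackets, red bars are list medians, and the dashed line is the tissue ceiling of 78.5. Erythroid factors have points on both sides of the line, whereas all 17 megakaryocyte and all 12 MHC class II points lie left of it.

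BCR-ABL1 signals through adaptors, STAT factors and kinases. Of 21 genes of this signalling measured, 8 reached the 90th percentile (38.1%) and 11 passed the ceiling. ABL1 was at 95.4 ± 0.723, with samples from 93.6 through 95.4 to 96.8. BCR was at 61.5 ± 3.28, with a second probe set at 57.3, and ran from 55.8 through 61.3 to 68.7. All ABL1 samples were above the ceiling and all BCR samples under it. Where these probes lie relative to the fusion joint was not examined, so the fusion and the normal messages were not separated. CRKL, the adaptor that BCR-ABL1 phosphorylates, was the highest at 96.4. STAT3 (95.5), STAT5A (94.3) and STAT5B (92.2), the SRC family kinase LYN (92.5), the phosphatase PTPN11 (92.4) and SHC1 (92.1) followed. Other probe sets lay at 81.6 and 66.8 for STAT5B, at 73.0 for SHC1 and from 24.4 to 87.1 for PTPN11. With the median of a gene's probe sets, 5 of the 21 genes reached the 90th percentile. The list median then fell from 79.1 to 63.6. GRB2, which links BCR to RAS, was at 81.2 and JAK2 at 75.8. CBL (47.7), PIK3R1 (47.0), DOK2 (41.1) and FES (35.2) lay in the lower part of the order.

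Among 29 oncogenes, 9 reached the 90th percentile (31.0%) and 12 passed the ceiling. MYC, which drives growth and ribosome production, was at 96.2 ± 0.804, with samples from 94.5 through 96.3 to 97.4. PIM1, a kinase gene switched on by STAT5, was at 97.6 ± 0.299, and MCL1, which blocks cell death, at 98.0. The chaperones SET (99.2) and NPM1 (98.9) led the list. Of the D cyclins, CCND3 was at 96.4, CCND2 at 89.1 and CCND1 at 33.4, with CCND1 under the ceiling in every sample. Survival genes of the BCL2 family were spread out, with BCL2L1 at 79.1 ± 6.59 and BCL2 at 53.0 ± 12.1. MYCN was at 36.0 and ROS1 at 27.0. MDM4, an inhibitor of p53, ranged from 5.64 in set A to 42.9 in set G.

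Of 20 tumour suppressors measured, 0 reached the 90th percentile and 2 passed the ceiling. These were STK11, a kinase of energy sensing, at 85.6 and CDKN1C, an inhibitor of cyclin kinases, at 80.8. Their other probe sets lay under the ceiling, at 65.4 for STK11 and from 28.1 to 58.4 for CDKN1C. K562 cells are known to have lost the chromosome 9 region that holds CDKN2A, CDKN2B and MTAP. CDKN2A was at 48.8 ± 7.92, with other probe sets at 30.0 and 17.9, and its samples ran from 38.1 through 45.7 to 63.9. CDKN2B was at 10.6 ± 3.30. MTAP, an enzyme of methionine salvage, was at 55.8 ± 7.02 in its best probe set and at 25.9, 12.2, 11.1 and 2.52 in the other 4. All 3 genes were under the ceiling in every sample. VHL at 3.36 and NF1 at 3.89 were lower still, and GPX1 in the antioxidant list was at 18.96, so the rank of 1 probe set can be very low for genes that most cells use. RB1 differed most between sets within this list, from 17.9 in set E to 58.7 in set G.

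Cancer-testis antigens, genes of the germ line that tumours reactivate, lay at both ends of the order. Of 28 measured, 4 reached the 90th percentile (14.3%), a share near the 11.6% of all genes. The ceiling was passed by 6 (21.4%), against 25.6% of all genes. Below the 50th percentile lay 17 (60.7%), against 42.4% of all genes. PRAME was at 98.8 ± 0.0526, with single samples from 98.7 through 98.8 to 99.0. MAGEA6 was at 96.9 ± 0.415, SSX1 at 94.2 and MAGEA12 at 94.2. SSX3 (89.6) and MAGEB2 (84.9) also passed the ceiling. MAGEA4 at 7.74, MAGEA11 at 5.87 and MAGEB3 at 4.89 were at the other end. MAGEA6, MAGEA12 and SSX1 are read by probe sets whose probes can also bind near-identical family members, so the member behind the signal is uncertain, and a second SSX1 probe set was at 44.2. The 23 promoters at hand for this list had a median ratio of observed to expected CpG of 0.435, against 0.911 in 46 ribosomal protein promoters and 0.580 over 27305 genes. It was 0.798 over the 9562 measured genes with a promoter. In 38 promoters of the tissue genes it was 0.240, so a low ratio is not particular to this list.

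**Figure D3:**
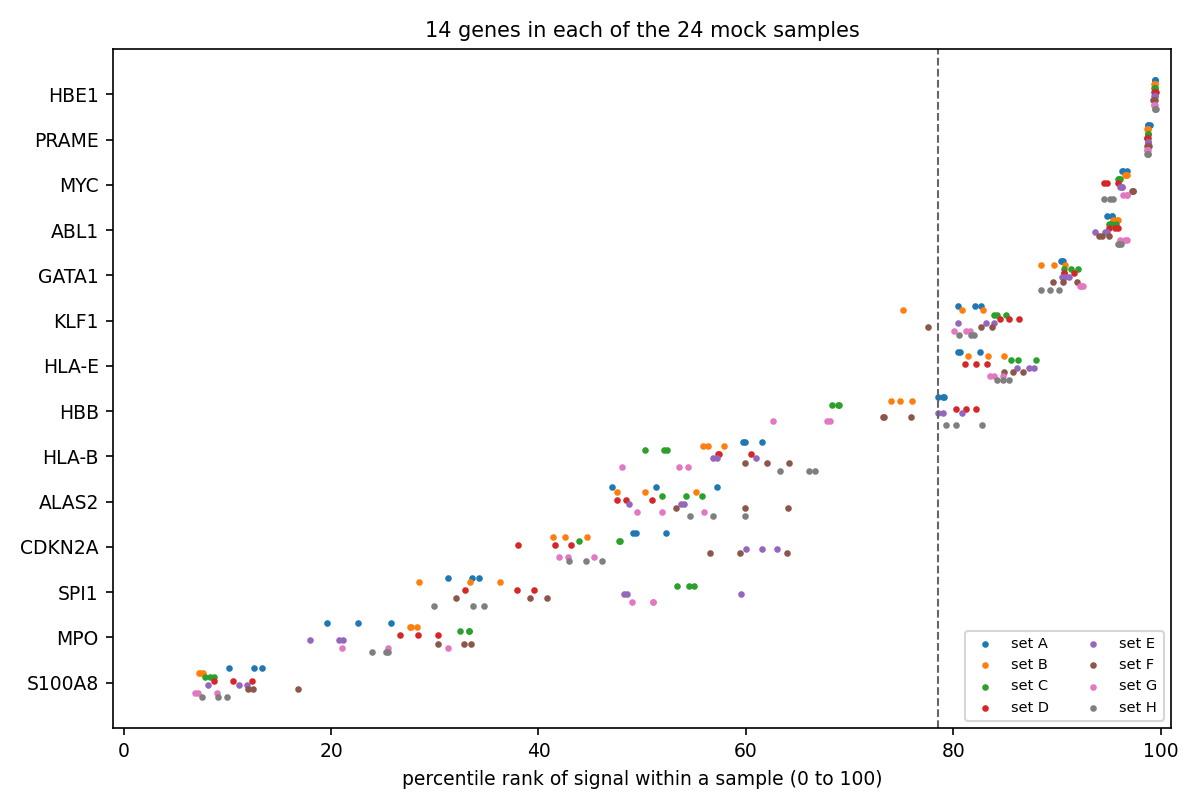
Percentile rank of 14 genes in each of the 24 mock samples. Each point is 1 sample, coloured by set, and the dashed line is the tissue ceiling of 78.5. HBE1 and PRAME samples lie within 1 point, where the end of the scale leaves little room to spread, and SPI1 samples run from 28.5 to 59.6.

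Among antigen presentation genes, the class I light chain and the chaperones ranked high and the immunoproteasome subunits low. B2M, the light chain of class I, was at 98.7 ± 0.112, and the chaperones CANX and CALR were at 98.7 and 94.2. The class I heavy chains lay between, with HLA-E at 84.4 ± 2.09, HLA-G at 80.4 ± 4.59, HLA-C at 67.2 ± 9.67, HLA-F at 61.7 ± 3.44 and HLA-B at 58.1 ± 4.71. HLA-B samples ran from 48.1 through 57.7 to 66.7, all under the ceiling, and HLA-E samples from 80.5 through 84.8 to 88.0, all above it. Heavy chains resemble each other, and their probe sets can share signal. TAP1 and TAP2, which carry peptides into the endoplasmic reticulum, were at 50.4 and 55.1, near the median of 56.6 over all genes. TAPBP was at 87.5, with a second probe set at 23.4. The immunoproteasome subunits PSMB9 and PSMB8 were at 32.2 and 30.7, and ERAP1 at 38.1. Of 12 class II genes 0 passed the ceiling. HLA-DRA was at 42.1 and its invariant chain CD74 at 43.8. Among ligands seen by NK cells, for which K562 is a standard target, BAG6 was the highest of 8 at 97.5. MICB was at 79.3, NECTIN2 at 74.3, MICA at 68.6, PVR at 60.1 and ULBP1, the lowest, at 29.1.

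Interferon-induced genes were not high as a list, with 3 of 23 at or above the 90th percentile and a median of 43.6. All 3 were IFITM genes, which block virus entry: IFITM1 at 99.2 ± 0.0947, IFITM3 at 98.8 and IFITM2 at 98.6. BST2, which tethers budding virus, was at 89.2. IFIT1 was at 13.2, MX1 at 34.8 and GBP1 at 5.87. The IFITM genes are close in sequence and may share signal.

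Energy metabolism ranked high almost throughout. Of 17 main glycolytic genes, 13 reached the 90th percentile and 17 passed the ceiling. GAPDH (99.9), ALDOA (99.7), LDHA (99.6) and LDHB (99.2) led them. The lowest members were the glucose transporter SLC2A1 at 81.7 ± 3.78 and the phosphofructokinase PFKL at 86.2 ± 4.50. A second SLC2A1 probe set was at 17.1. SLC2A3, a glucose transporter of high affinity, was at 95.3 ± 0.895. Of 16 isozymes used in particular tissues only ALDOC, the brain aldolase, passed, at 97.0 ± 0.410 with samples from 95.8 through 97.1 to 97.7. PKLR, the pyruvate kinase of liver and red cells, was at 65.2 while PKM was at 98.1. G6PC1 and PCK1, enzymes of liver glucose output, were at 1.91 and 3.66.

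Mitochondrial genes ranked high too. Of 33 respiratory chain and ATP synthase genes, 30 reached the 90th percentile, led by ATP5F1B at 99.2 and ATP5MC3 at 99.1. NDUFB7 was the only one under the ceiling at 71.4 ± 7.94, and its second probe set was at 7.30. Of 3 heart and muscle isoforms, the cytochrome oxidase subunits COX6A2 and COX7A1 were at 47.5 and 31.2, and SLC25A4, an ADP/ATP carrier, was at 82.4 and so above the ceiling, with a second probe set at 18.2. In the citric acid cycle 9 of 16 reached the 90th percentile, from MDH2 at 98.1 and CS, the citrate synthase, at 96.5 down to SUCLA2 at 66.2 ± 8.76.

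Supply for growth was high as well. Of 23 genes of nucleotide and one-carbon metabolism, 12 reached the 90th percentile. TYMS, which makes thymidylate, led at 99.0 ± 0.133, with IMPDH2 at 97.6 and RRM2, the ribonucleotide reductase subunit of S phase, at 97.5. The mitochondrial SHMT2 was at 97.1 and its cytosolic partner SHMT1 at 15.03. DCK, of the salvage route, was at 31.4 ± 12.2. Of 14 cholesterol synthesis genes 9 reached the 90th percentile, with IDI1 at 97.6 and SQLE at 97.2. Of 20 antioxidant genes 14 did so, from SOD1 at 99.0 ± 0.0364 to GSR at 90.6 and GCLM at 90.02. GSTA1 was at 42.8. Of 11 genes often used as references, 10 reached the 90th percentile, and TBP, a general transcription factor, was at 79.3.

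Dividing cells were marked by 18 of 29 mitosis genes and 14 of 30 replication genes at or above the 90th percentile (62.1% and 46.7%). PTTG1, the securin, was at 98.2, CDK1 at 97.0 and TPX2 at 95.8. MCM6 and MCM7 of the replicative helicase were at 97.1 and 96.8, and PCNA at 96.3. KIF23 at 20.7 ± 11.7, UBE2C at 52.5 and CCNE2 at 47.9 were low for genes of the cycle.

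**Figure D4:**
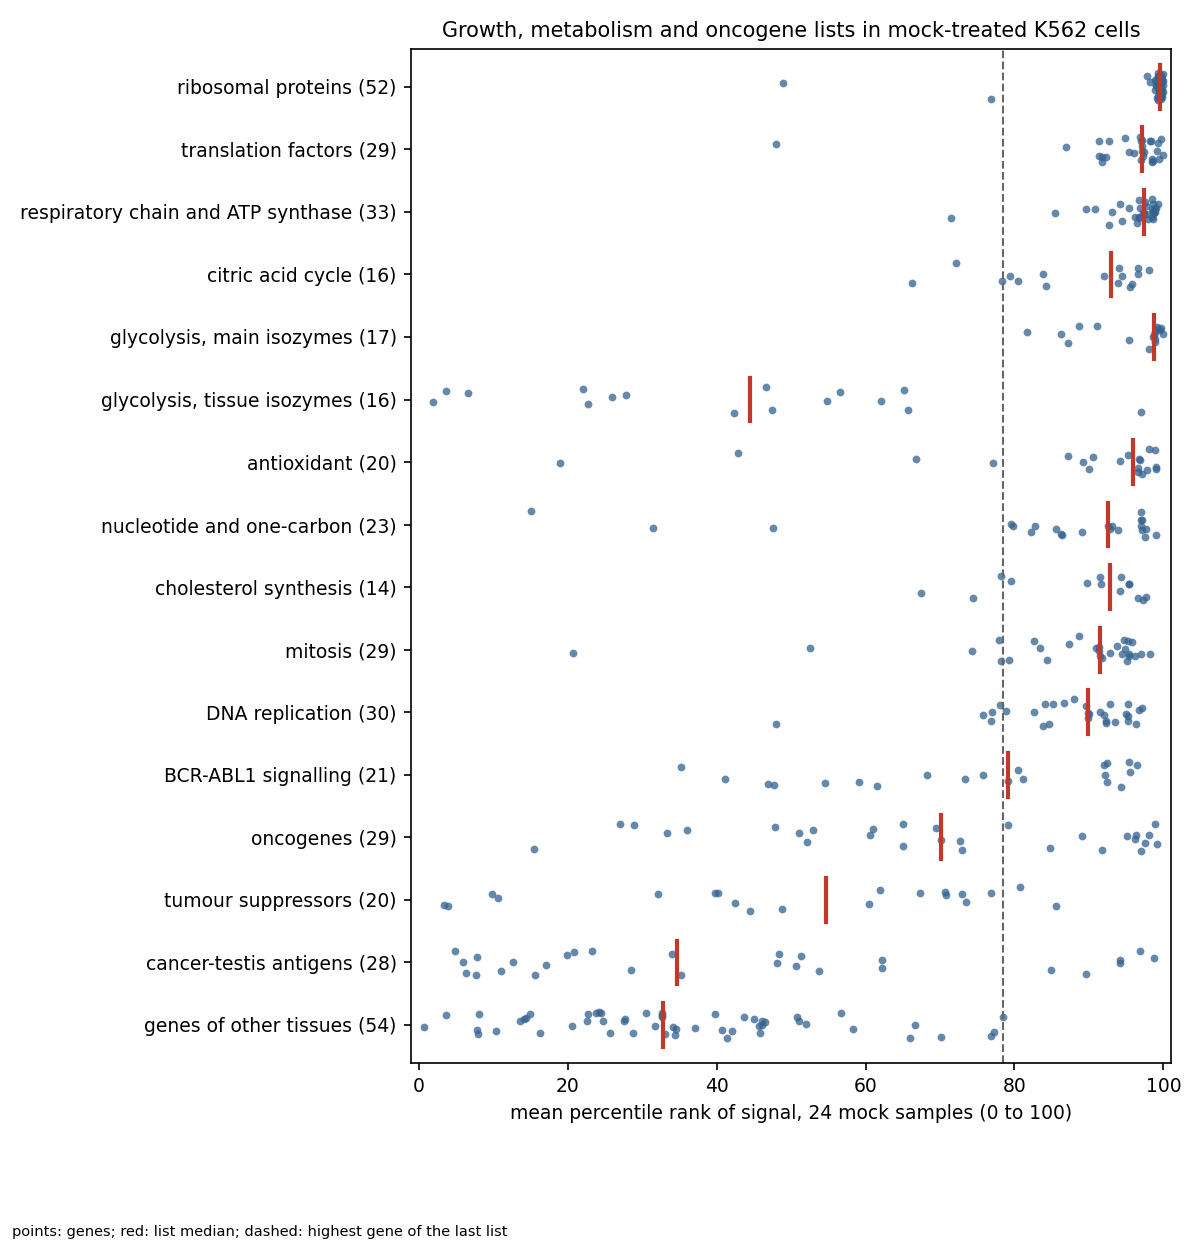
Percentile rank of every measured gene in 16 lists of growth, metabolism and cancer genes, averaged over the 24 mock samples. Points are genes, with the number measured in brackets, red bars are list medians, and the dashed line is the tissue ceiling of 78.5. All 17 main glycolysis genes lie right of the line, and cancer-testis genes lie at both ends.

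Imatinib samples were used to show where the mock order differed from the rest of the series. Over all probe sets, 5762 of 22215 (25.9%) ranked higher in mock and 7422 (33.4%) lower at an adjusted p under 0.05 in limma with the set as a factor, 13184 (59.3%) in all. With log2 values centred on each array's median the counts were 6638 higher and 6194 lower, so the split between the directions depended on the scale. At gene level the shares were 3123 of 11963 (26.1%) higher and 4352 (36.4%) lower. Representing probe sets were picked by their mock rank, which favours higher values in mock. Of 671 list genes, 202 ranked higher and 251 lower in mock, and in 50 of them the difference varied between sets (6.34% of all probe sets did so). Of the 1386 genes at or above the 90th percentile in mock, 1133 were also there in imatinib samples, which is 81.7% of the mock genes and 82.5% of the 1373 imatinib genes.

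Mitosis, nucleotide and cholesterol genes ranked mostly higher in mock than in imatinib samples, whereas 26.1% of all genes ranked higher and 36.4% lower. Of 29 mitosis genes, 27 ranked higher in mock, 1 lower (NUSAP1) and 1 (UBE2C) did not pass, and the median difference was 4.44 points against -0.493 over all genes. Of 23 nucleotide genes 17 ranked higher and 5 lower, and of 14 cholesterol genes 10 higher and 2 lower. Of 30 replication genes 7 ranked higher and 15 lower, but 13 and 10 on the centred log2 scale, so their direction depended on the scale. HHEX, a homeobox factor of blood progenitors, was at 93.9 in mock and 42.5 in imatinib samples, and the difference of set means ran from 39.9 to 62.7 points (limma adjusted p = 7.56e-40). SLC2A3 was at 95.3 in mock and 46.6 in imatinib samples (adjusted p = 5.98e-41). CD3D stood at 79.4 against 48.5, PRF1 at 76.5 against 47.0 and WT1, a zinc finger factor of leukaemias, at 73.0 against 42.7. These 5 genes were chosen among those ranked higher in mock in all 8 sets. MYC ranked at 96.2 against 89.7 and MYB at 97.0 against 86.9, both higher in mock in 8 of 8 sets (adjusted p = 2.71e-30 and 9.64e-36).

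Red cell genes ranked mostly lower in mock, whereas 36.4% of all genes ranked lower and 26.1% higher. All 5 globins, 7 of 8 heme enzymes and 19 of 22 surface and skeleton genes ranked lower in mock, with median differences of -11.5, -15.04 and -14.3 points. The exceptions were ALAS1 (4.03 points) and CD47 (4.75 points), higher in mock, and CD36 and CR1, which did not pass. AQP1 was at 43.0 in mock against 96.2 in imatinib samples, ERMAP at 28.6 against 76.3 and ALAS2 at 53.3 against 98.5. TUBB1, the platelet tubulin, was at 36.6 against 79.7 and EPB42 at 44.2 against 85.6. These 5 were chosen among genes lower in mock in all 8 sets, and had limma adjusted p from 1.89e-47 to 8.44e-21. In 12 of 23 erythroid and progenitor factors the mock rank was lower, KLF1 by 14.8 points among them. In 6 it was higher, a share near that of all genes, including GATA2, at 90.2 against 65.2, and SPI1, at 41.2 against 29.1.

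Other genes differed by small amounts. PRAME was at 98.8 in mock and 98.7 in imatinib samples, and its set differences did not all have the same sign. ABL1 was at 95.4 against 96.8 and BCR at 61.5 against 63.9, both lower in mock by 1.36 and 2.44 points (adjusted p = 1.33e-14 and 0.00297), BCR without the same sign in all sets. The 3 genes of the lost chromosome 9 region did not pass the test. MPO at 26.9 against 28.2 did not pass either (adjusted p = 0.0805). Of the 54 tissue genes, 25 ranked lower in mock and 1 higher, against 36.4% and 26.1% of all genes. Their median difference was -1.19 points against -0.493 over all genes.

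**Figure D5:**
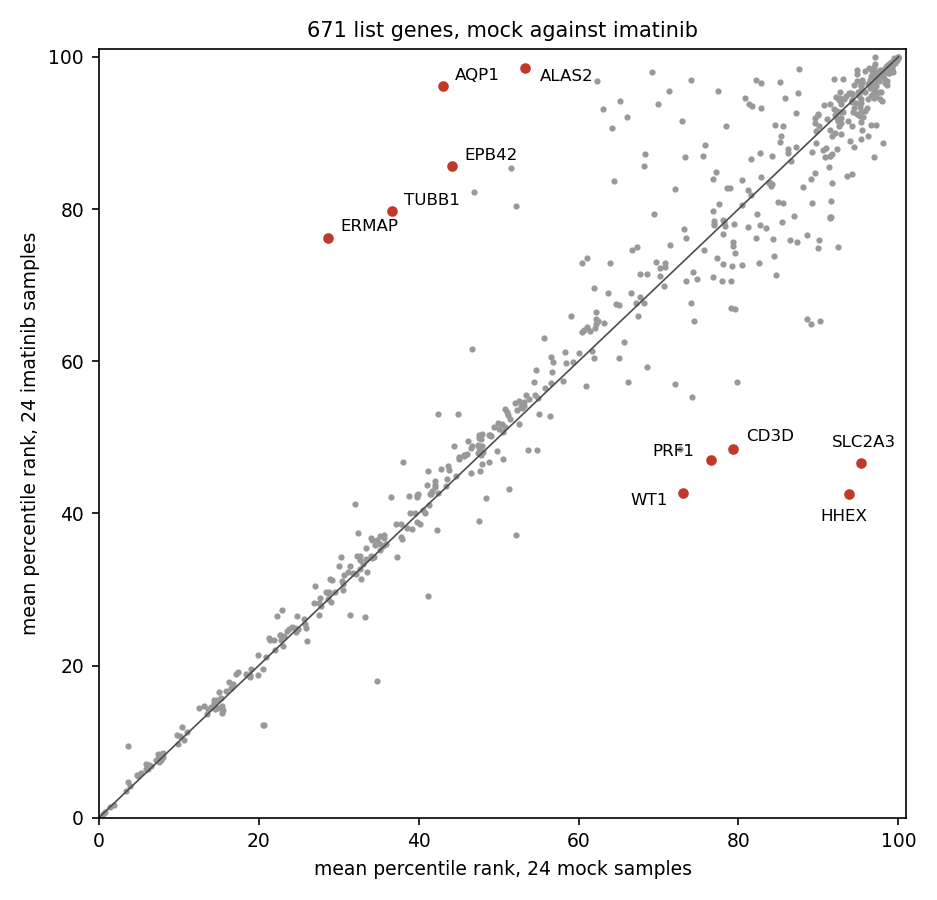
Mean percentile rank of 671 list genes in the 24 mock samples (x axis) against the 24 imatinib samples (y axis), with the line of equal rank. The 10 genes in red have the largest differences with the same sign in all 8 sets, from AQP1 above the line, at 43.0 and 96.2, to HHEX below it, at 93.9 and 42.5.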

How the data were processed

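The authors deposited a table of log2 values, 1 column for each of 48 arrays. The sources used here do not state the array software, the background correction or the normalisation. Values ran from 2.41 to 14.9, and the mean of a mock set from 5.89 to 7.59, with samples of a set nearly equal. Levels were therefore compared as ranks within a sample, after 68 control probe sets were left out of 22283. Of 22215 probe sets, 19065 name 1 gene, 1043 several and 2107 none. The last 2 kinds were ranked but named for no gene. Where a gene has several probe sets, 4310 genes in all, the highest and lowest lie a median of 21.8 points apart. The number of arrays limits the precision.

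Ranks were turned into normal scores and tested with limma 3.58.1 in R 4.3.3, with Benjamini-Hochberg adjustment over all 22215 probe sets: an F-test over the 8 mock sets, and mock against imatinib with the set as a factor. In simulated data the first test recovered 25 of 50 probe sets shifted by 0.25 score units and 48 of 50 shifted by 0.5, and the second 50 of 50 at both sizes. The 35 lists hold 814 genes, of which 671 were measured, and the members, lists and rules were chosen with earlier results of these data known. Named were the 20 highest genes outside ribosomal proteins and translation factors, up to 5 highest and 3 lowest members of each list, all globins, genes of the fusion, the lost region and class I, the 8 list genes of widest set range, and the 5 with the largest difference from imatinib in each direction and 1 sign in all sets. Other names in the text were added after their values were seen. Deviations of same-numbered samples of different sets correlated at a median of 0.051 over 84 pairs, from -0.363 to 0.427. Pairs with different numbers had a median of -0.026 over 168 pairs, from -0.428 to 0.406. Mock and imatinib samples of the same set and number had a median of 0.020, from -0.372 to 0.411. These values do not settle whether replicate numbers pair samples, and the main tests left the number out. Figures were drawn with matplotlib 3.10.9 in Python 3.11.15.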

Additional observations from a re-analysis of the deposited data

Results flagged for a closer look

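Of the 10 genes with the largest differences between mock and imatinib samples, 6 had a difference that varied between sets by limma's F-test of the set by treatment terms, which 6.34% of all 22215 probe sets passed (1409). The difference always kept its sign. TUBB1 varied most, with mock lower by 23.1 to 63.5 points in different sets (adjusted p = 3.225e-10). For HHEX, higher in mock by 39.9 to 62.7 points, the adjusted p was 0.008148. PRF1 was higher in mock by 18.4 to 42.1 points (adjusted p = 0.007716) and WT1 by 23.1 to 41.3 points (adjusted p = 0.03368). AQP1 was lower in mock by 46.2 to 65.1 points (adjusted p = 0.01231) and EPB42 by 35.8 to 52.4 points (adjusted p = 0.04799).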

How the results depend on the processing

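Restricting the tests to 10997 probe sets with a mean mock rank of 50 or more lowered the count that differed between mock sets from 21898 to 10818 and the count lower in mock from 7422 to 4515, since fewer were tested. With percentile ranks in place of scores, 21237 differed between sets and 5671 and 7215 ranked higher and lower in mock. With centred log2 values the counts were 22163, 6638 and 6194. With the replicate number as a block they were 21894, 5753 and 7392, so the block changed none of these counts by over 1.5 times. Calls of single probe sets were not compared. Leaving out 1 sample gave 21803 to 21880, 5666 to 5787 and 7177 to 7607, and leaving out 1 set gave 5517 to 5813 higher and 6730 to 7645 lower. Without set E or without set G, settings added after seeing the data, 21612 to 21709 differed between sets. Taking a gene's median probe set instead of its highest moved 24 of 35 list medians and 90 of 287 named genes by more than 1 SD, among them oncogenes (from 70.2 to 52.2) and erythroid factors (from 81.3 to 64.2), so a level here is that of the best probe set. The tissue ceiling lay between 74.0 and 79.4 over the alternatives.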
